A study of Rattus norvegicus with 30 samples.

Results

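The constitutive CYP2 enzymes described here are 10 cytochrome P450 genes that rat liver transcribes without need of a foreign inducer: Cyp2e1, Cyp2a1, Cyp2a2, Cyp2c11, Cyp2c12, Cyp2c13, Cyp2c23, Cyp2d3, Cyp2d4 and Cyp2j4. Members were taken as all probe sets of the deposited array table whose platform gene symbol was 1 of these names. This gave 10 of the 14217 genes named on the array, with 11 of its 31099 probe sets, 1 for each gene and 2 for Cyp2d4, and all 11 passed the filter on dim signals that left 21226 probe sets for testing. A further probe set is annotated to both Cyp2a1 and Cyp2a2 and is described beside them without being counted.

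The RNA came from frozen hepatocytes of male Sprague Dawley rats, thawed, plated on collagen and overlaid with Matrigel, a basement membrane gel. On day 3 of culture the wells received chlorpromazine HCl, an antipsychotic drug of the phenothiazine class, at 0.8 or 20 µM, or the vehicle dimethyl sulfoxide (DMSO, 1%). RNA was collected 24 or 48 h after dosing, from 5 wells for each of the 6 combinations of treatment and time, with 1 array per well. All 6 groups share the cell source, the culture system and the lack of any genetic change. No label ties wells to different animals, although each well is described as a culture of its own, and p-values therefore measure the spread between wells. The question put by the design is how transcript levels respond to dose and time.

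Cytochrome P450 enzymes of the CYP2 family sit in the endoplasmic reticulum, bind heme and oxidise drugs, steroids and fatty acids with electrons passed on by the reductase Por. In rat liver several of them are sex-specific, because the pulses of growth hormone in males and its steadier level in females set their transcription through the kinase Jak2 and the transcription factor Stat5b. Liver-enriched factors such as Hnf4a and Cebpa also act on their promoters, and hepatocytes taken into culture are known to lose many P450 transcripts with time. In people chlorpromazine is itself oxidised by an enzyme of the CYP2D group.

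The deposited values are linear signals per probe set, scaled by the authors to a common trimmed mean of 1499.9 on each array, and array medians ran from 379.8 to 448.8. Changes are log2 differences of group means of signals floored at 16, given ± SE with n = 5 arrays per group. A probe set is said to fall, rise or change where limma's adjusted p was under 0.05, with Benjamini-Hochberg adjustment over all 21226 probe sets. Levels of different probe sets cannot be ranked against each other, since each set of probes binds with its own strength. Binding of transcripts from close relatives was not tested for any of these CYP2A, CYP2C or CYP2D probe sets, which bears on the signals and on the differences between neighbouring genes given here.

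2 arrays stood apart and touch several results at 24 h. On an axis from 24 to 48 h, set by 100 probe sets outside the CYP2 family and the other 28 arrays, with 0 at 24 h and 1 at 48 h, vehicle replicate 5 at 24 h lay at 0.55 and 0.8 µM replicate 1 at 24 h lay at 0.47. The other 13 arrays labelled 24 h lay between -0.10 and 0.16, and the 15 arrays labelled 48 h between 0.90 and 1.15. Both arrays fell below the other 8 vehicle and 0.8 µM arrays of 24 h for Cyp2c12, Cyp2c13 and Cyp2c23, and above them for Cyp2a1, Cyp2a2, Cyp2c11 and Cyp2j4. Such a double displacement was found for 9.06% of all probe sets tested. For Cyp2e1, Cyp2d3 and both Cyp2d4 probe sets the pair did not lie outside the other 8. Values without these 2 arrays are given where they change a call or move a change by over 1.5 times, and for some other results at 24 h. The reason for their position was not tested.

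**Figure D1:**
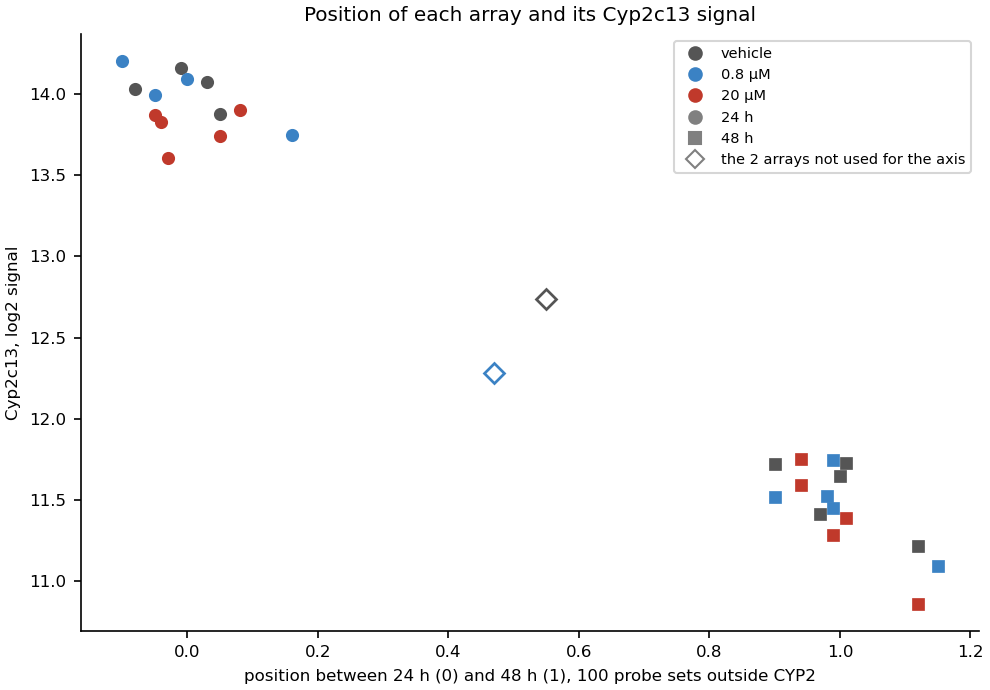
Position of each of the 30 arrays between 24 h (0) and 48 h (1) on 100 probe sets outside the CYP2 family, against the log2 signal of Cyp2c13, which had no part in the axis. Circles are 24 h, squares 48 h, colours are treatments, and the 2 open diamonds are vehicle replicate 5 (0.55) and 0.8 µM replicate 1 (0.47) of 24 h, which lie between the other 24 h and 48 h arrays on both axes.

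Sequence upstream of the annotated gene start was at hand for 9 of the 10 genes, from RefSeq on build GRCr8, and 250 bases are shown for 5 genes whose behaviour separates the family. Cyp2e1 and Cyp2c11 are shown because they fell together at 20 µM. Cyp2d3 is shown because it fell at both doses and both times. Cyp2c12 and Cyp2c13 are shown because they are neighbours with no coding gene between them, their upstream stretches are the most alike among the 9 (170 of 280 aligned columns identical, 60.7%, against 49.5% for the next pair), and their signals moved differently. Capitals mark matches to the motifs listed after the sequences, read 5′ to 3′ on the gene's strand.
Cyp2e1 (chr1:205269717-205269966, plus strand): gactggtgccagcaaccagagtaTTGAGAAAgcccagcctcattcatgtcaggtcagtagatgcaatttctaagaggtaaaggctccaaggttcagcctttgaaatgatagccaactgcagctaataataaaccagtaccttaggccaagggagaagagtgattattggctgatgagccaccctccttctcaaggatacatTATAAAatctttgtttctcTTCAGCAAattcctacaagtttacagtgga
Cyp2c11 (chr1:246174966-246175215, plus strand): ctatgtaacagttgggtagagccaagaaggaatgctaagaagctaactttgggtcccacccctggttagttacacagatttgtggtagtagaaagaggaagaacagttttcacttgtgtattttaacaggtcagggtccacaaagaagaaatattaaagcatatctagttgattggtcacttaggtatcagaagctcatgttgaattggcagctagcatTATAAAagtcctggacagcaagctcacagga
Cyp2d3 (chr7:115802143-115802392, minus strand): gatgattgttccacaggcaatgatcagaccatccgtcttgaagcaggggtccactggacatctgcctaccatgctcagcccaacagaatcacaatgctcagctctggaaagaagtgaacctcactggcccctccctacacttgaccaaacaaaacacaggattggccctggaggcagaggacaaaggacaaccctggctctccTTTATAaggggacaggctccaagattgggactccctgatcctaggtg
Cyp2c12 (chr1:248677035-248677284, minus strand): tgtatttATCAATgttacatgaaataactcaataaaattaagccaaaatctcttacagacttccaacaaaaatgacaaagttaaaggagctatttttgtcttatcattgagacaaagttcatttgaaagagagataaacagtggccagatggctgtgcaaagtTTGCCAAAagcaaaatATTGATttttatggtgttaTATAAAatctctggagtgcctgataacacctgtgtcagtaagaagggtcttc
Cyp2c13 (chr1:248787189-248787438, minus strand): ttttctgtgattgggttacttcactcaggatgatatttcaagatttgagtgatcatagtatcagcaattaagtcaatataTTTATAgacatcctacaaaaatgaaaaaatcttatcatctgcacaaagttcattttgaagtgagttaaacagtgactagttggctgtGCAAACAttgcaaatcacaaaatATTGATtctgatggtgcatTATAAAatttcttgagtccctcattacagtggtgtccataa

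7 motifs were searched on both strands, and a match is only a run of letters, not a shown binding site. The TATA box TATAAA occurred in 6 of the 9 genes (Cyp2a1, Cyp2e1, Cyp2c11, Cyp2c12, Cyp2c13 and, on the opposite strand, Cyp2d3), against 12.9% of 33469 rat promoters of the same length. The C/EBP motif TTNNGNAA occurred in 4 of 9 (Cyp2e1, Cyp2c12, Cyp2c23 and Cyp2j4) against 37.2%, and the FOXA motif TGTTTNC in 3 of 9 (Cyp2c13, Cyp2c23 and Cyp2j4) against 18.3%. The HNF6 motif ATCAAT was found in 2 of 9, Cyp2c12 and Cyp2c13, against 7.1%. In both genes a copy on the opposite strand lay close to the TATA box, 71 bases before the start in Cyp2c12 and 60 in Cyp2c13. The STAT5 motif TTCNNNGAA occurred once, in Cyp2j4 (TTCTCAGAA), against 7.67% of promoters. The HNF1 motif GTTAAT (6.45%) and the HNF4 motif CAAAGTCCA (0.338%) were in none of the 9 windows.

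At 20 µM and 48 h most constitutive CYP2 transcripts fell steeply, and Cyp2a1 and Cyp2c13 did not pass the test. Of the 11 probe sets 9 were lower than vehicle, against 12.4% of all probe sets tested (9.89% with arrays centred on their medians), and none was higher, against 14.4% (also 0 at an unadjusted p under 0.05, limma). A fall of at least 2-fold was found for 7 of 11, against 1.82% of all. Arrays of the 2 groups did not overlap, with 20 µM lower, for 7 of 11, against 9.59%. The median log2 change was -1.36 over the members and 0.01 over all probe sets. The members were chosen with earlier results of these data known. Counts of members set against all probe sets, here and below, therefore describe the members and are not a test of the family. Less RNA per cell and fewer cells of a type cannot be told apart in such bulk samples, and signals are relative to the array's mean.

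**Figure D2:**
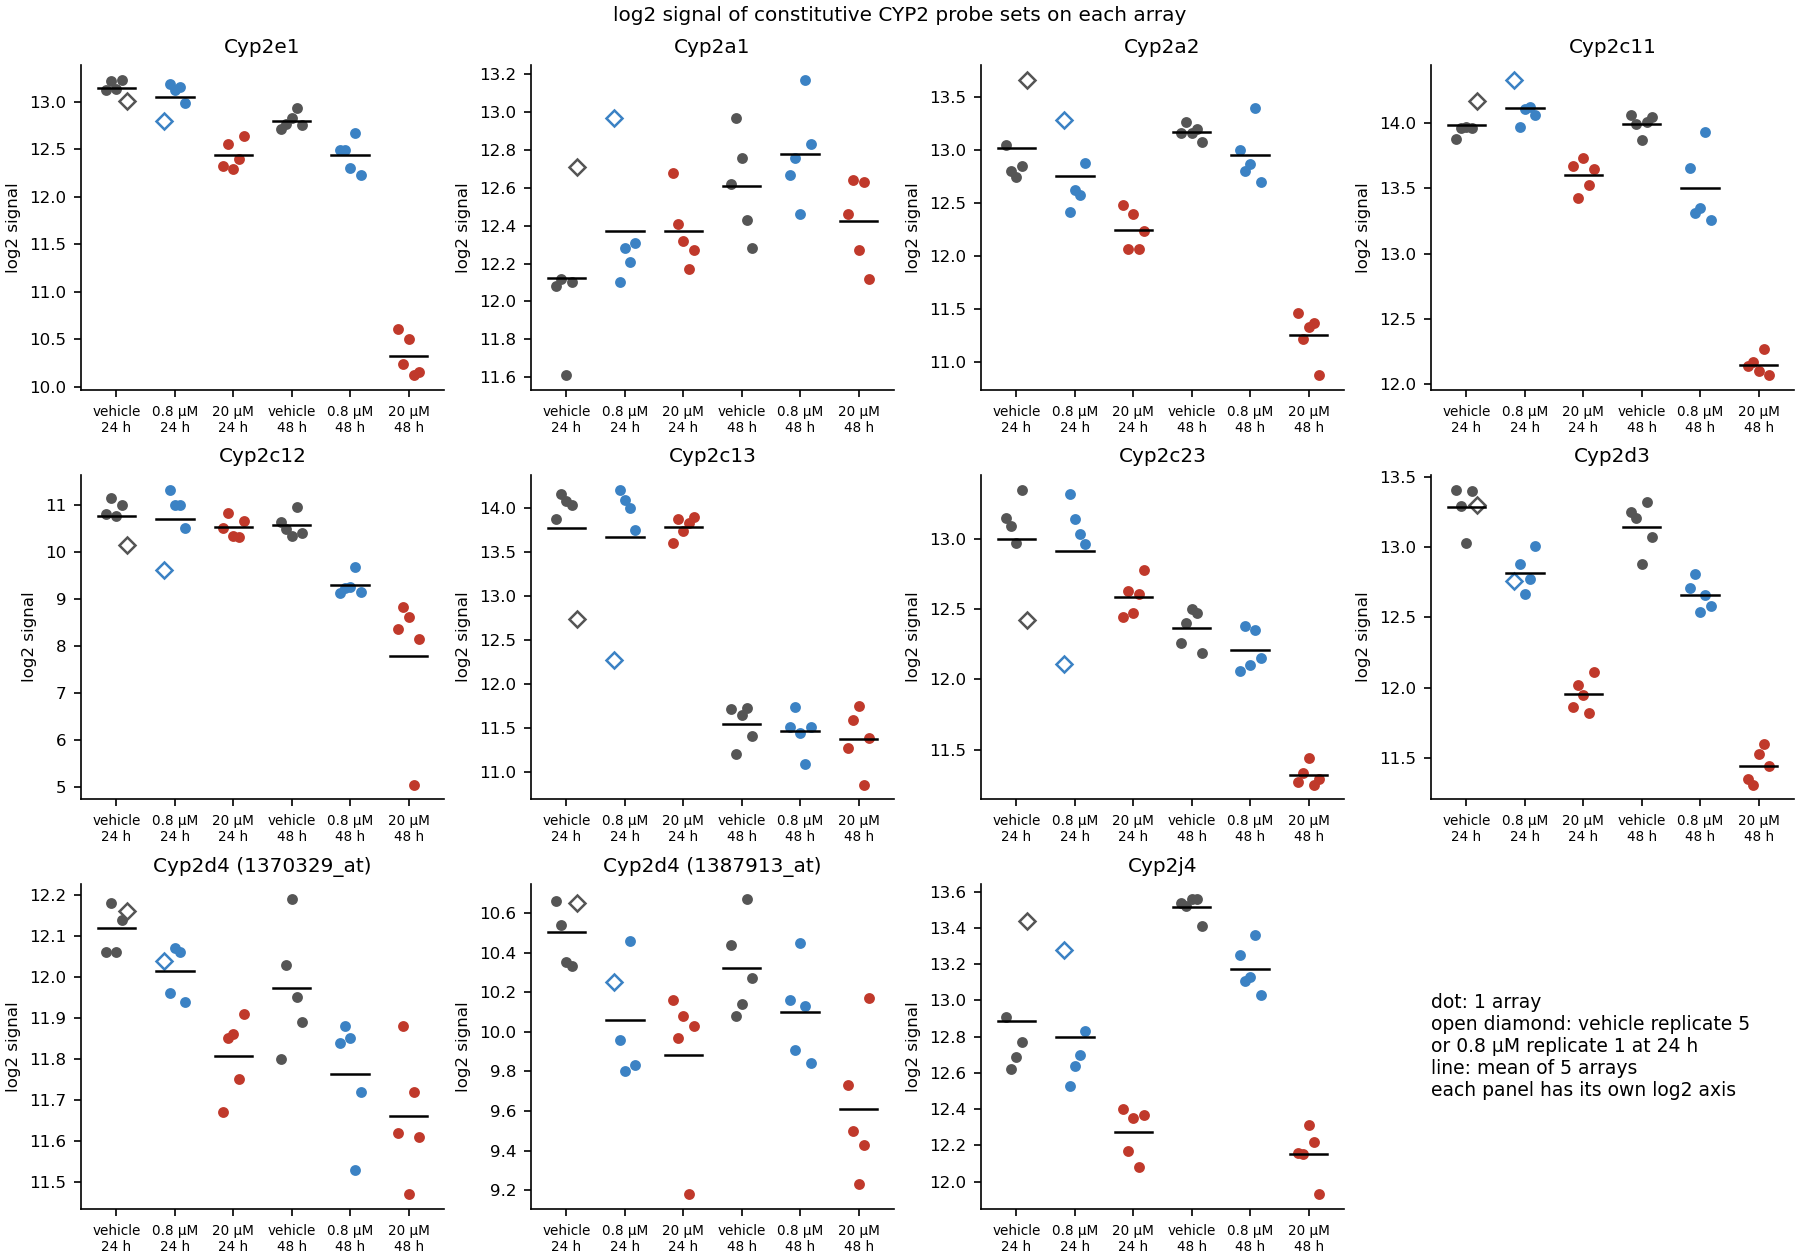
log2 signal of the 11 member probe sets on each of the 30 arrays, by treatment and time, with the mean of 5 arrays as a line; each panel has its own log2 axis, and open diamonds are the 2 arrays that stood apart. The 20 µM arrays of 48 h lie below all vehicle arrays of 48 h in 7 panels, while Cyp2c13 drops between the times in every treatment and Cyp2a1 overlaps across treatments.

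Cyp2e1 (1367871_at) oxidises ethanol, acetone and small solvents, and is made mostly by the hepatocytes around the central vein. At 48 h its signal was 6704, 6974, 7305, 7885 and 6957 in vehicle, 5751, 5736, 5043, 6500 and 4815 at 0.8 µM, and 1558, 1208, 1444, 1115 and 1137 at 20 µM. The 3 groups did not overlap, and each higher dose lay lower. Cyp2e1 fell 5.59-fold at 20 µM (-2.48 ± 0.09, adjusted p = 1.79e-19) and 1.29-fold at 0.8 µM (-0.37 ± 0.09, adjusted p = 0.0281, limma). The call at 0.8 µM is a narrow one, and was lost with arrays centred on their medians (adjusted p = 0.0581), without a trend in the spread (0.0622), with only the 48 h arrays in the fit (0.0585) and without any 1 of 4 arrays (0.0606 to 0.109: vehicle replicates 3 and 4, 0.8 µM replicates 3 and 5).

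One day earlier the same gene read 8892, 9521, 9016, 9610 and 8265 in vehicle, 7129, 9374, 8912, 9133 and 8112 at 0.8 µM, and 5123, 6020, 5010, 5392 and 6361 at 20 µM. The 20 µM arrays lay below all others of 24 h, and those of vehicle and 0.8 µM overlapped. Cyp2e1 fell 1.63-fold at 20 µM and 24 h (-0.70 ± 0.09, adjusted p = 6.65e-07, limma). Its effect of 20 µM was larger at 48 than at 24 h by -1.78 ± 0.13 (adjusted p = 1.08e-10), which among the 11 probe sets was the smallest p for that difference. Ordered by mean, the groups ran from vehicle, 0.8 µM at 24 h and vehicle at 48 h down to 20 µM at 24 h and 0.8 µM at 48 h, which overlapped each other, and last 20 µM at 48 h.

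Cyp2c11 (1387328_at) is the main male-specific steroid hydroxylase of rat liver. At 48 h its signal was 17051, 16277, 14978, 16493 and 16914 in vehicle, 12937, 10127, 10432, 15592 and 9796 at 0.8 µM, and 4518, 4606, 4388, 4955 and 4294 at 20 µM. No 20 µM array came near the other groups, while 1 of the 0.8 µM arrays, replicate 4, reached into the vehicle range. Cyp2c11 fell 3.59-fold at 20 µM (-1.84 ± 0.09, adjusted p = 1.15e-16) and 1.41-fold at 0.8 µM (-0.49 ± 0.09, adjusted p = 0.00171, limma). At 24 h it read 15026, 15887, 16000, 15892 and 18466 in vehicle, 20638, 16017, 17706, 17861 and 17034 at 0.8 µM, and 13003, 11066, 13580, 11792 and 12886 at 20 µM. The 20 µM arrays of 24 h were again lowest, without overlap, but the fall was 1.3-fold (-0.38 ± 0.09, adjusted p = 0.00208). The 20 µM effect grew by -1.46 ± 0.13 between the times (adjusted p = 4.17e-09).

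The 0.8 µM effect on Cyp2c11 at 48 minus that at 24 h was -0.63 ± 0.13, short of the threshold (adjusted p = 0.0502) and past it without the 2 arrays (-0.62 ± 0.13, adjusted p = 0.0481, limma), where 1 of 11 probe sets was called, against 0.066% of all. With all arrays it was the nearest of the 11 probe sets to a call, and none passed, against 0.0424% of all probe sets, and 3 of 11 had an unadjusted p under 0.05 (Cyp2e1, Cyp2c12 and Cyp2c11). At 24 h the 0.8 µM change of Cyp2c11 was 0.13 ± 0.09 (adjusted p = 0.668).

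Cyp2a2 (1369424_at) is a male-predominant testosterone hydroxylase and Cyp2a1 (1387511_at) its adjacent gene on chromosome 1, more abundant in females. At 48 h Cyp2a2 read 9124, 9813, 9184, 9432 and 8679 in vehicle, 8207, 7110, 7492, 10827 and 6648 at 0.8 µM, and 2842, 2389, 2580, 2644 and 1882 at 20 µM. Over the same wells Cyp2a1 read 6286, 8029, 6934, 5502 and 4978 in vehicle, 6532, 6914, 5647, 9243 and 7271 at 0.8 µM, and 5640, 6397, 4951, 6349 and 4453 at 20 µM. The 20 µM arrays lay far below the rest for Cyp2a2, while for Cyp2a1 they overlapped both other groups. Cyp2a2 fell 3.78-fold (-1.92 ± 0.15, adjusted p = 8.13e-12), and Cyp2a1 was at -0.18 ± 0.16 with a 95% interval of -0.52 to 0.15 (adjusted p = 0.469, limma), which excludes a fall as large as that of Cyp2a2.

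The log2 difference between the Cyp2a2 and Cyp2a1 signals of one array shows this unequal movement without the scaling. It was 0.56 ± 0.23 (SD, n = 5) in vehicle and -1.17 ± 0.20 at 20 µM at 48 h, with ranges of 0.29 to 0.80 and -1.42 to -0.94. The probe set shared by both genes (1369275_s_at) lay between them, with a 1.36-fold fall (-0.45 ± 0.11, adjusted p = 0.00135, limma).

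At 24 h Cyp2a2 read 8478, 7143, 6894, 7375 and 12975 in vehicle, 9912, 5494, 6296, 6121 and 7519 at 0.8 µM, and 5718, 4303, 5388, 4306 and 4830 at 20 µM. The high vehicle value is replicate 5 and the high 0.8 µM value replicate 1, the 2 arrays that stood apart. Cyp2a2 fell 1.71-fold at 20 µM (-0.77 ± 0.15, adjusted p = 0.000285), and by -0.61 ± 0.12 without the 2 arrays (adjusted p = 0.00032, limma). Cyp2a1 went the other way at that time, with 4333, 4447, 3133, 4376 and 6684 in vehicle and 6570, 5439, 5101, 4609 and 4945 at 20 µM. The groups overlapped only through vehicle replicate 5. The change of Cyp2a1 was 0.25 ± 0.16 with all arrays (adjusted p = 0.356), and 0.39 ± 0.14, a rise, without the 2 arrays (adjusted p = 0.0467). The 20 µM effect on Cyp2a2 differed between the times by -1.15 ± 0.21 (adjusted p = 0.0014).

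Cyp2d3 (1370496_at) and Cyp2d4 belong to the CYP2D enzymes, which oxidise many amine drugs, and lie on chromosome 7 with Cyp2d5 and Cyp2d1 between them. Cyp2d3 read 10919, 10012, 8360, 10779 and 10079 in vehicle, 6914, 7538, 6510, 6962 and 8237 at 0.8 µM, and 3721, 4155, 3968, 3622 and 4410 at 20 µM at 24 h. A day later the values were 9745, 9476, 7552, 10222 and 8605 in vehicle, 6713, 7160, 5957, 6492 and 6103 at 0.8 µM, and 2607, 2535, 2964, 3113 and 2775 at 20 µM. At either time the 3 treatments formed 3 separate bands in order of dose. Cyp2d3 fell at 20 µM by -1.33 ± 0.08 at 24 h (2.52-fold, adjusted p = 3.49e-13) and by -1.70 ± 0.08 at 48 h (3.25-fold, adjusted p = 1.12e-16, limma).

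Of the 11 member probe sets, Cyp2d3 was the 1 that changed at 0.8 µM and 24 h, against 0.283% of all probe sets. It fell by -0.47 ± 0.08 (1.39-fold, adjusted p = 0.00892), and by -0.49 ± 0.08 at 48 h (1.4-fold, adjusted p = 0.000697, limma). The 24 h call was lost with arrays centred on their medians, at -0.48 ± 0.10 and adjusted p = 0.0556, where 3 probe sets of the whole table were called higher and 1 lower. The 20 µM effect on Cyp2d3 did not pass the test of a difference between the times (-0.37 ± 0.12, adjusted p = 0.0926), and passed it without vehicle replicate 3 of 48 h (-0.43, adjusted p = 0.0284).

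Cyp2d4 has a brighter probe set (1370329_at) and a dimmer one (1387913_at), and moved less than Cyp2d3. On the first, vehicle arrays of 48 h read 3566, 4192, 4676, 3953 and 3803 and 20 µM arrays 3147, 3770, 2840, 3381 and 3125, with 1 treated array inside the vehicle range. On the second the values were 1385, 1081, 1132, 1625 and 1233 in vehicle and 851, 724, 600, 688 and 1153 at 20 µM, again with 1 treated array inside the range. Both fell, by -0.31 ± 0.07 (adjusted p = 0.00148) and by -0.71 ± 0.17 (adjusted p = 0.00187, limma). At 24 h they fell by -0.31 ± 0.07 (adjusted p = 0.00258) and by -0.62 ± 0.17 (adjusted p = 0.0095). The last of these rests in part on 20 µM replicate 4, which read 581 against 1004 to 1146 on the other treated arrays, and without it the change was -0.45 (adjusted p = 0.0539). Within an array, the log2 difference between Cyp2d3 and the first Cyp2d4 probe set went from 1.17 ± 0.29 (SD, n = 5) in vehicle to -0.21 ± 0.23 at 20 µM at 48 h, without overlap.

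Cyp2c23 (1367988_at) turns arachidonic acid into epoxides, lipid mediators known mainly from kidney. At 48 h its signal was 4916, 5420, 5806, 5678 and 4683 in vehicle, 4268, 5342, 4384, 5237 and 4545 at 0.8 µM, and 2470, 2582, 2776, 2433 and 2497 at 20 µM. The 20 µM values were close together and below all others, a 2.07-fold fall (-1.05 ± 0.15, adjusted p = 1.17e-06, limma), and 0.8 µM overlapped vehicle. At 24 h the signal was 9061, 8693, 8011, 10470 and 5462 in vehicle and 5544, 6348, 5660, 6230 and 7019 at 20 µM. Vehicle replicate 5, which stood apart, is the lowest of the 10. With it the change was -0.41 ± 0.15 (adjusted p = 0.0549), and without the 2 arrays Cyp2c23 fell by -0.55 ± 0.09 (adjusted p = 2.01e-05).

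Cyp2j4 (1387296_at), on chromosome 5, belongs to the CYP2J enzymes, which also act on arachidonic acid. It read 11892, 11707, 12081, 12092 and 10868 in vehicle, 9734, 8829, 8955, 10500 and 8373 at 0.8 µM, and 4584, 4544, 5063, 4760 and 3895 at 20 µM at 48 h. The 3 groups did not overlap. Cyp2j4 fell 2.57-fold at 20 µM (-1.36 ± 0.12, adjusted p = 7.66e-11). The 0.8 µM change of -0.34 ± 0.12 did not pass with all arrays (adjusted p = 0.157) and passed with the 48 h arrays alone in the fit (adjusted p = 0.0149, limma). At 24 h vehicle arrays read 7681, 6278, 6621, 6998 and 11146 and 20 µM arrays 5420, 4602, 5207, 4344 and 5282, a 1.53-fold fall (-0.61 ± 0.12, adjusted p = 0.000254, or -0.47 ± 0.08, adjusted p = 4.93e-05, without the 2 arrays). The 20 µM effect was larger at 48 h by -0.75 ± 0.17 (adjusted p = 0.00889).

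Cyp2c12 (1368155_at) is the female-specific steroid hydroxylase of the CYP2C group, and its probe set gave a signal above the filter in these cells of male rats on 29 of 30 arrays. At 48 h it read 1582, 1430, 1299, 1965 and 1340 in vehicle, 555, 596, 605, 821 and 565 at 0.8 µM, and 329, 448, 387, 33 and 279 at 20 µM. The 3 groups did not overlap. Cyp2c12 fell 6.81-fold at 20 µM (-2.77 ± 0.41, adjusted p = 2.55e-06), and without 20 µM replicate 4, which read 33, by -2.08 ± 0.23 (adjusted p = 2.05e-08, limma).

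The 0.8 µM change of Cyp2c12 at 48 h was -1.28 ± 0.41, a 2.42-fold difference that did not pass with all arrays (adjusted p = 0.115). The SE is shared by all 6 groups, and without that same 20 µM array the change was -1.28 ± 0.22 and passed (adjusted p = 0.000913). With a floor of 64 on the signal it also passed (adjusted p = 0.0378, limma). At 24 h the values were 1784, 2269, 1726, 2034 and 1124 in vehicle, 774, 2550, 2028, 2047 and 1461 at 0.8 µM, and 1450, 1809, 1295, 1261 and 1601 at 20 µM. These groups overlapped, and the 20 µM change of -0.24 ± 0.41 did not pass (adjusted p = 0.768), nor did that of -0.40 ± 0.41 without the 2 arrays (adjusted p = 0.597). The 20 µM effect differed between the times by -2.52 ± 0.58 (adjusted p = 0.0114), and by -1.84 ± 0.32 without 20 µM replicate 4 of 48 h (adjusted p = 0.000783).

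Cyp2c13 (1370495_s_at), a male-specific steroid hydroxylase and the neighbour of Cyp2c12, was lower at 48 than at 24 h in every treatment and passed no test of the drug. At 24 h it read 15066, 18350, 17287, 16729 and 6840 in vehicle, 4983, 18888, 17457, 16342 and 13761 at 0.8 µM, and 12455, 14960, 13717, 14556 and 15286 at 20 µM. At 48 h it read 3377, 2377, 3203, 3393 and 2725 in vehicle, 2946, 3428, 2796, 2187 and 2932 at 0.8 µM, and 2489, 3085, 3445, 1858 and 2681 at 20 µM. Every array of 48 h lay below every array of 24 h, whatever the treatment. The 20 µM change was -0.17 ± 0.25 at 48 h (95% interval -0.69 to 0.34, adjusted p = 0.696) and 0.01 ± 0.25 at 24 h (-0.50 to 0.53, adjusted p = 0.985, limma), or -0.25 ± 0.13 at 24 h without the 2 arrays (adjusted p = 0.241). The interval at 48 h excludes a 2-fold fall. The suffix of the probe set name marks probes that can match more than 1 transcript, and what share of this signal a related CYP2C transcript may have was not tested.

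The unequal movement of these 2 neighbours also shows within each array. The log2 difference of Cyp2c12 minus Cyp2c13 was -3.01 ± 0.26 (SD, n = 5) in vehicle at 24 h and -0.99 ± 0.23 in vehicle at 48 h, since Cyp2c13 dropped and Cyp2c12 did not pass the test of time (-0.21 ± 0.41, adjusted p = 0.844, or -0.37 ± 0.41, adjusted p = 0.675, without the 2 arrays, limma). At 48 h it was -2.19 ± 0.45 at 0.8 µM and -3.59 ± 1.26 at 20 µM. The 3 treatments did not overlap in this difference at 48 h, with ranges of -1.30 to -0.73, -2.52 to -1.41 and -5.82 to -2.78, and the lowest value is 20 µM replicate 4.

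**Figure D3:**
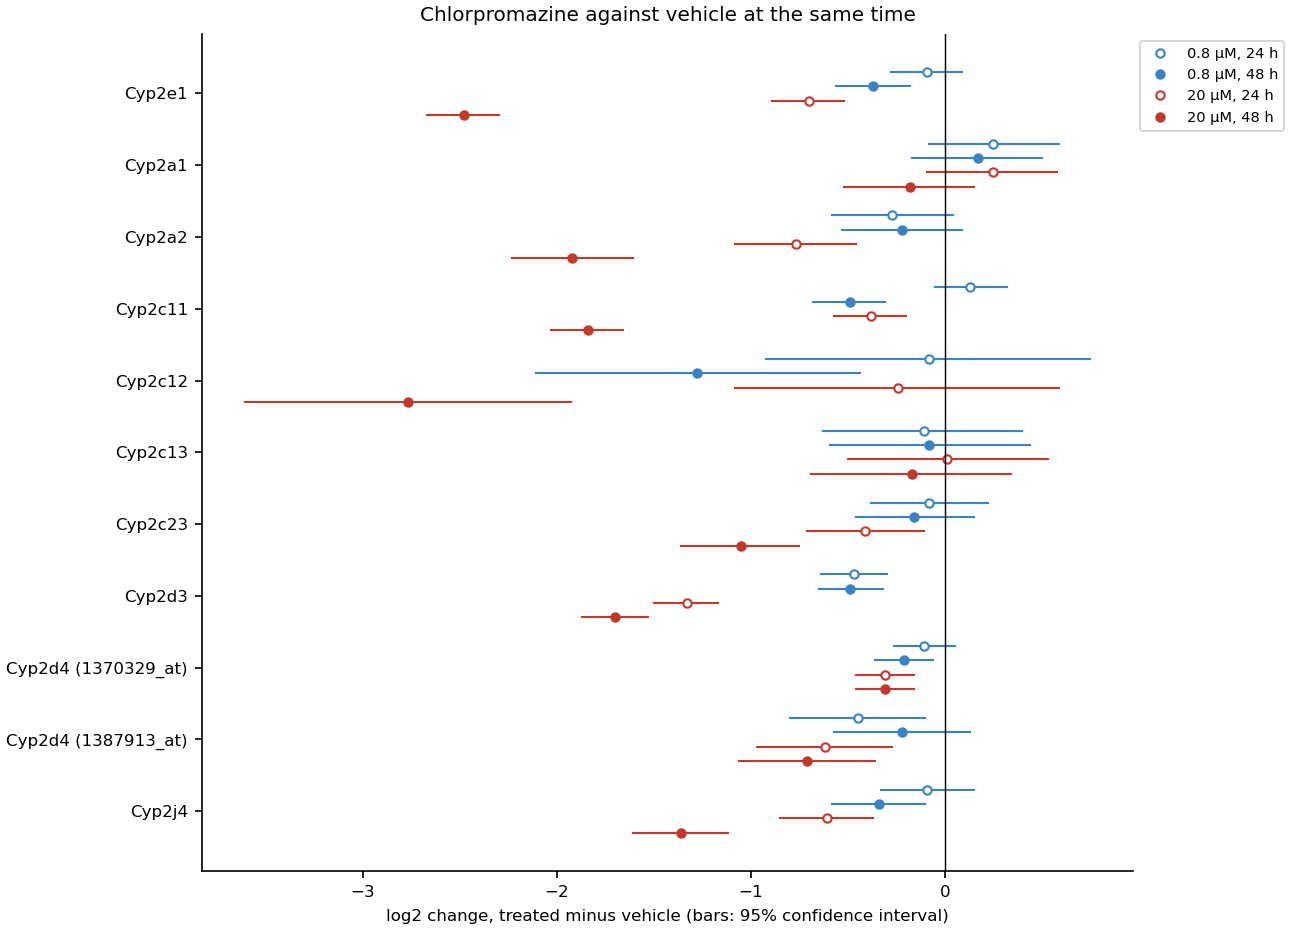
log2 change against vehicle of the same time for the 11 member probe sets at 0.8 µM (blue) and 20 µM (red), at 24 h (open) and 48 h (filled), with 95% confidence intervals from limma. At 48 h the 20 µM points of 7 probe sets lie at -1 or below, those of both Cyp2d4 probe sets at -0.31 and -0.71, and those of Cyp2a1 (-0.18) and Cyp2c13 (-0.17) have intervals that include 0.

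Across the family at 24 h, 20 µM lowered 7 of the 11 probe sets (Cyp2e1, Cyp2a2, Cyp2c11, Cyp2d3, Cyp2j4 and both of Cyp2d4), against 8.24% of all probe sets tested (5.45% with arrays centred on their medians). The arrays of all 7 lay below every vehicle array, against 6.25% of all probe sets. A fall of at least 2-fold was found for 1 of 11, Cyp2d3, against 0.537%. None was higher, against 9.12%, and none had an unadjusted p under 0.05 in that direction (limma). Without the 2 arrays 8 were lower, with Cyp2c23 added, against 7.69%, and 1 was higher, Cyp2a1, against 8.75%. The median change was -0.41 over the members and -0.01 over all probe sets. Summed signals of Kupffer cell and endothelial markers were also lower at 20 µM than in vehicle at 24 h without overlap. Lyz2 (median signal 8117) is the largest part of the Kupffer sum, with Cd68 next at 1589. With all arrays 1 of 9 Kupffer and 1 of 6 endothelial markers were called lower, against 9.93% of all genes. The part of other cell types in these falls was not tested.

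The 20 µM effect differed between 48 and 24 h for 5 of 11 probe sets (Cyp2e1, Cyp2c12, Cyp2a2, Cyp2j4 and Cyp2c11), against 2.72% of all, and for all 5 it was more negative at 48 h. Of all probe sets called in that comparison 60% were more negative at 48 h, or 71.1% with arrays centred on their medians. Without the 2 arrays Cyp2c23 joined them (-0.50 ± 0.12, adjusted p = 0.012), against 3.9% of all. For Cyp2d4 the effects at the 2 times differed by 0.00 ± 0.10 and -0.08 ± 0.24 on its 2 probe sets, with 95% intervals of -0.22 to 0.21 and -0.58 to 0.41 (adjusted p = 0.998 and 0.935, limma).

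At 48 h, 0.8 µM changed 3 of 11 probe sets, all lower: Cyp2e1, Cyp2d3 and Cyp2c11, against 1.81% of all probe sets in either direction. Without the 2 arrays 4 of 11 changed, with Cyp2j4 added (-0.34 ± 0.07, adjusted p = 0.00926, limma), against 2.56%. For 4 of 11 the 0.8 µM arrays lay wholly below vehicle, Cyp2e1, Cyp2c12, Cyp2d3 and Cyp2j4, against 1.87%. The median change was -0.22 over the members at 48 h and -0.09 at 24 h, and 0.01 over all probe sets at both times. Replicate 4 of 0.8 µM at 48 h read highest of its group for Cyp2e1, Cyp2a1, Cyp2a2, Cyp2c11, Cyp2c12 and Cyp2j4. It read lowest for Cyp2c13 and the brighter Cyp2d4 probe set. On the axis between the times it lay at 1.15, the highest position of the 48 h arrays. With any single array left out, 2 to 4 members were called at 0.8 µM and 48 h.

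Set against 0.8 µM directly, 20 µM lowered 5 of 11 probe sets at 24 h (Cyp2e1, Cyp2a2, Cyp2d3, Cyp2j4 and Cyp2c11), against 5.4% of all (3.04% with arrays centred on their medians), and 8 of 11 at 48 h, against 9.87%. At 24 h 6 of 11 were lower without the 2 arrays, with Cyp2c23 added (-0.53 ± 0.09, adjusted p = 7.07e-05), against 4.89%. The largest of these differences at 48 h was that of Cyp2e1 (-2.11 ± 0.09, 4.32-fold), followed by Cyp2a2 (-1.70 ± 0.15) and Cyp2c12 (-1.49 ± 0.41). The 3 that did not pass at 48 h were Cyp2a1 (-0.35 ± 0.16, adjusted p = 0.143), Cyp2c13 (-0.09 ± 0.25, adjusted p = 0.865) and the first Cyp2d4 probe set (-0.10 ± 0.07, adjusted p = 0.391, limma). Both drug groups share vehicle arrays in the comparisons given before, so the agreement of their directions is not a separate result.

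In vehicle wells members moved in both directions between the 2 times. Time in culture and time in 1% DMSO cannot be told apart here, since no wells were left without DMSO or drug. Between 24 and 48 h of vehicle 4 of 11 probe sets changed, against 8.93% of all probe sets, 3 of them lower (Cyp2e1, Cyp2c13 and Cyp2c23, against 4.28%) and 1 higher (Cyp2j4, against 4.65%). Cyp2c13 fell 4.7-fold (-2.23 ± 0.25, adjusted p = 2.54e-07), and by -2.49 ± 0.13 without the 2 arrays (adjusted p = 1.61e-13). Cyp2c23 fell 1.54-fold (-0.63 ± 0.15, adjusted p = 0.00527) and Cyp2e1 1.26-fold (-0.34 ± 0.09, adjusted p = 0.0146, limma). The 4.7-fold fall of Cyp2c13 stands beside a Cyp2c11 change of 0.01 ± 0.09 (95% interval -0.17 to 0.19), although both are male-specific CYP2C genes. Of 13 CYP2 genes outside the members 4 were lower and 1 higher, where 5.77% and 5.76% of all genes were. Among them Cyp2c7 fell by -1.34 ± 0.18 (adjusted p = 5.85e-06, limma) and Cyp2c6v1 by -0.23 ± 0.06, while Cyp2c22 was at 0.05 ± 0.08.

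Cyp2j4 rose 1.55-fold over the same day (0.63 ± 0.12, adjusted p = 0.000484), and by 0.77 ± 0.08 without the 2 arrays (adjusted p = 4.23e-08). Cyp2a1 was higher at 48 h by 0.49 ± 0.16, short of the threshold (adjusted p = 0.0588), and rose by 0.63 ± 0.14 without the 2 arrays (adjusted p = 0.00189, limma). In that fit 2 of 11 were higher, against 5.63% of all. At 20 µM neither passed: Cyp2j4 was at -0.12 ± 0.12 (adjusted p = 0.668) and Cyp2a1 at 0.06 ± 0.16 (adjusted p = 0.916).

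Within 0.8 µM, 5 of 11 probe sets were lower at 48 than at 24 h (Cyp2e1, Cyp2c23, Cyp2c12, Cyp2c13 and Cyp2c11), against 1.79% of all, and within 20 µM 7 of 11 were (these 5, Cyp2a2 and Cyp2d3), against 3.76%. None was higher within 0.8 µM, against 2.28% of all, although 2 of 11 had an unadjusted p under 0.05 in that direction. Without the 2 arrays both were higher, Cyp2j4 (0.50 ± 0.08, adjusted p = 7.87e-05) and Cyp2a1 (0.55 ± 0.14, adjusted p = 0.0113, limma), against 3.14%. Cyp2c13 fell by -2.20 ± 0.25 at 0.8 µM and by -2.41 ± 0.25 at 20 µM, close to its fall in vehicle. Cyp2c11 fell by -0.62 ± 0.09 at 0.8 µM (adjusted p = 2.69e-05) and by -1.45 ± 0.09 at 20 µM (adjusted p = 2.85e-13, limma).

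**Figure D4:**
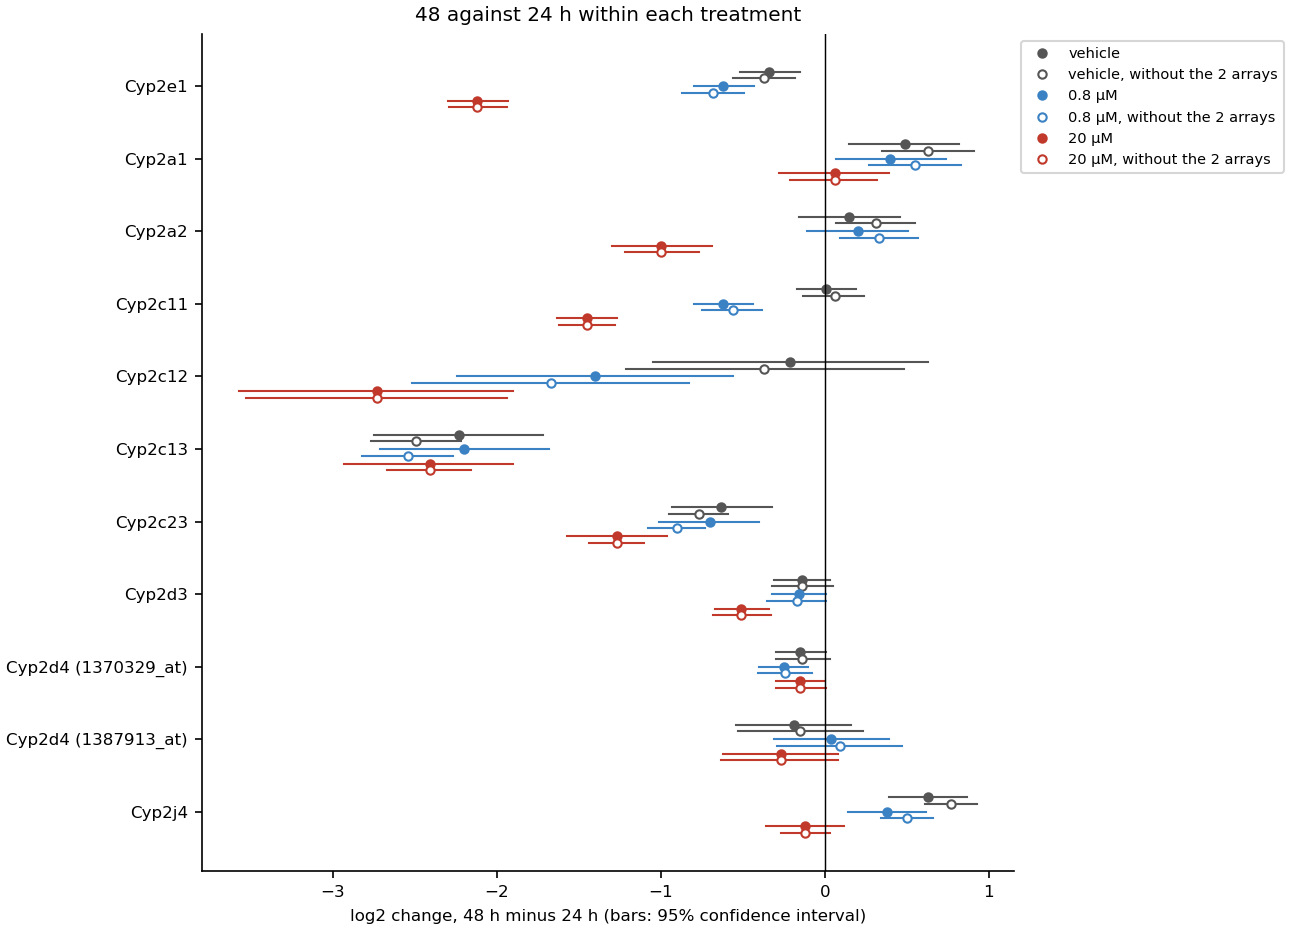
log2 change from 24 to 48 h within vehicle (grey), 0.8 µM (blue) and 20 µM (red) for the 11 member probe sets, with 95% confidence intervals; open points leave out the 2 arrays that stood apart. Cyp2c13 lies between -2.20 and -2.54 in all 3 treatments, while Cyp2e1 and Cyp2c11 fall further with dose and Cyp2j4 is above 0 in vehicle (0.63) and at -0.12 at 20 µM.

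Other genes of the pathway were read from lists beside the members. Of 13 other CYP2 genes kept, 5 were lower and 1 higher at 20 µM and 48 h, where 14.2% and 19.3% of 11503 genes were. Their median was -0.25, against 0.04 over all genes and -1.36 over the member probe sets. Cyp2j3, a relative of Cyp2j4, fell by -1.66 ± 0.12, Cyp2f4 by -1.02 ± 0.09 Cyp2d2 by -0.98 ± 0.06 and Cyp2b3 by -0.68 ± 0.11, and Cyp2c6v1 rose by 0.45 ± 0.06. At 24 h 4 were lower and 1 higher, or 3 and 1 without the 2 arrays. Among 20 other liver P450 and flavin monooxygenase genes 14 were lower and 1 higher at 48 h, with Cyp4a1, a fatty acid hydroxylase, at -2.93 ± 0.15, Cyp7a1, which starts bile acid synthesis, at -2.77 ± 0.25, Cyp8b1 at -2.24 ± 0.09 and Cyp3a18 at -2.13 ± 0.07. The 1 that rose was Cyp1a2, by 1.07 ± 0.07. At 24 h 11 of the 20 were lower and 1 higher, where 9.93% and 12.3% of all genes were.

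The electron donors of the CYP2 enzymes were read next. Por, the P450 reductase, was at -0.11 ± 0.05 at 24 h and -0.08 ± 0.05 at 48 h (adjusted p = 0.152 and 0.275), and of 6 redox partners none was lower at 48 h and 2 rose, Cyb5b by 0.22 ± 0.06 and Cyb5a by 0.19 ± 0.07. At 24 h 2 redox partners were higher and 1, Cyb5r3, lower (-0.20 ± 0.07, not called without the 2 arrays). Of 12 genes for making and breaking down heme, 3 were lower and 2 higher at 48 h, where 14.2% and 19.3% of all genes were. At that time Alad fell by -0.42 ± 0.09 Cpox by -0.39 ± 0.04 and Fech by -0.30 ± 0.08, all enzymes of heme synthesis, and Hmox1, which breaks heme down, rose by 0.38 ± 0.08 and Blvrb by 0.34 ± 0.09. Alas1, the first step of heme synthesis, rose at 24 h by 0.36 ± 0.09 (adjusted p = 0.00464) and was at 0.03 ± 0.09 at 48 h (adjusted p = 0.867, limma).

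Of 23 transcription factors that act on CYP2 promoters, 7 were lower and 1 higher at 48 h, where 14.2% and 19.3% of all genes were. Their median was -0.16, against 0.04 over all genes. At 24 h 7 were lower and 1 higher, where 9.93% and 12.3% of all genes were, with a median of -0.12 against 0.01. At 20 µM and 48 h Foxa1 fell by -1.39 ± 0.17, the nuclear receptor Nr1i3 (CAR) by -1.20 ± 0.08, Cebpa by -1.13 ± 0.11 and Nr2f2 by -0.64 ± 0.08. Hnf4a was at 0.03 ± 0.05 (adjusted p = 0.741). At 0.8 µM and 48 h Nr1i3 fell by -0.43 ± 0.08 (adjusted p = 0.00178) and Cebpa by -0.41 ± 0.11 (adjusted p = 0.0497, limma). Between 24 and 48 h of vehicle Hnf4a fell by -0.40 ± 0.05.

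The growth hormone route had 3 lower and 1 higher of 9 genes at 20 µM and 48 h, where 14.2% and 19.3% of all genes were. Ghr, the growth hormone receptor, fell by -0.76 ± 0.07, its target Igf1 by -0.74 ± 0.05 and the repressor Bcl6 by -0.38 ± 0.06, while the kinase Jak2 rose by 0.63 ± 0.19. Stat5b was at -0.26 ± 0.19 at 24 h and 0.07 ± 0.19 at 48 h (adjusted p = 0.421 and 0.844, limma). Ghr fell at 0.8 µM and 48 h as well, by -0.35 ± 0.07 (adjusted p = 0.00333). Cytokine input is known to lower P450 transcripts. Among 12 genes of cytokine input and response, 3 were lower and 2 higher at 20 µM and 48 h, against the same 14.2% and 19.3%. Their median was 0.01, against 0.04 over all genes. Crp fell by -0.87 ± 0.14, Il6r by -0.27 ± 0.08 and Il6st by -0.22 ± 0.05, while Nfkb1 rose by 0.43 ± 0.13 and Il1r1 by 0.23 ± 0.07. At 20 µM and 24 h 1 was lower and 2 higher, where 9.93% and 12.3% of all genes were. At 0.8 µM and 24 h 2 were higher, against 0.183%, or 1 without the 2 arrays, with Cxcl1 lost. The 20 µM effect was more negative at 48 than at 24 h for 2 of the 12, against 2.17%. These were Cxcl1 (-1.01 ± 0.19, adjusted p = 0.00127) and Il1r1 (-0.45 ± 0.11, adjusted p = 0.015, limma).

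**Figure D5:**
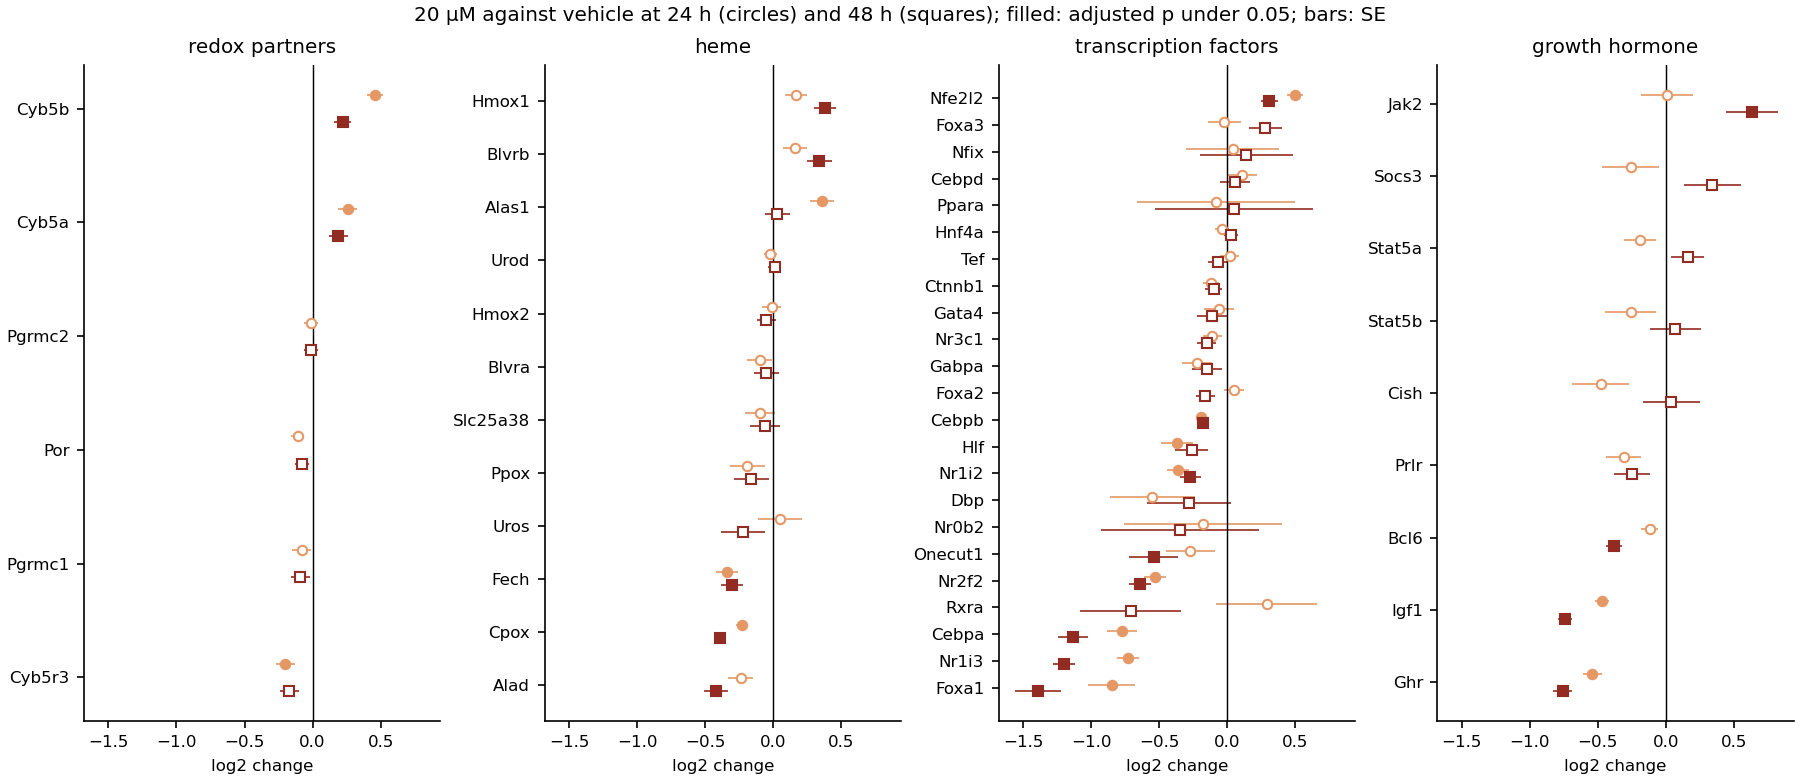
log2 change at 20 µM against vehicle at 24 h (circles) and 48 h (squares) for redox partners, heme genes, transcription factors and growth hormone signalling, with SE bars; filled symbols passed the adjusted p of 0.05. Foxa1 (-1.39), Nr1i3 (-1.20), Cebpa (-1.13) and Ghr (-0.76) lie lowest at 48 h in their panels, and Por, Hnf4a and Stat5b stay unfilled at both times.

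Cyp2e1 marks pericentral hepatocytes, so genes of both zones of the liver lobule were set beside it. Of 8 pericentral genes 2 were lower (Gulo, -0.51 ± 0.06, and Rgn, -0.47 ± 0.07) and 1 higher (Cyp1a2) at 48 h. Of 8 periportal genes 6 were lower and none higher, among them Sds (-2.32 ± 0.49), Pck1 (-1.19 ± 0.20) and Arg1 (-0.61 ± 0.08). The 6 include Cyp2f4, which was also counted among the other CYP2 genes, as Cyp1a2 was among the other liver P450 genes. Of all genes 14.2% were lower and 19.3% higher. At 24 h 2 pericentral genes were lower and 1 higher, and 3 periportal genes lower and none higher, where 9.93% and 12.3% of all genes were.

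Markers of hepatocytes and of other liver cells were read on the same arrays. Of 9 hepatocyte markers 2 fell at 20 µM and 48 h (Apob by -0.59 ± 0.08 and Fgb by -0.25 ± 0.09) and their median was -0.08. Their summed signal was 603578 to 752217 in vehicle and 562943 to 717925 at 20 µM. Mean log2 signals in vehicle at 48 h were 13.09 for Hnf4a, 15.81 for Apob and 16.24 (Apoa1) to 16.74 (Apoc3) for the rest. Whether a change can be missed at such bright signals was not tested. Of 9 Kupffer cell markers kept, 2 were lower and 1 higher, with Lyz2 at -0.79 ± 0.07, C1qa at -0.33 ± 0.12 and Cd68, also a lysosomal protein, at 1.44 ± 0.13. Of all genes 14.2% were lower and 19.3% higher. The summed Kupffer signal was 13024 to 15546 in vehicle and 10050 to 11856 at 20 µM at 48 h, and the defining marker Adgre1 was too dim to be kept. Lyz2 (median signal 8117) is the largest part of this sum, with Cd68 next at 1589. At 24 h the sum was 15603 to 17395 in vehicle and 13357 to 14617 at 20 µM, without overlap, and 1 of the 9 was lower (Lyz2, -0.40 ± 0.07), or 2 without the 2 arrays. Between 24 and 48 h of vehicle 4 of the 9 were lower, or 5 without the 2 arrays, where 5.77% of all genes were.

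None of 8 stellate cell, 6 endothelial and 2 cholangiocyte markers kept changed at 20 µM and 48 h. Their summed signals were 4404 to 5615, 1562 to 2693 and 11000 to 12154 in vehicle, and 4500 to 5245, 1807 to 2228 and 11369 to 12772 at 20 µM. The cholangiocyte sum is almost wholly Epcam (median signal 10498), with Krt19 at a median of 239. At 24 h 1 endothelial marker (Eng, -0.66 ± 0.22), 1 cholangiocyte marker (Krt19, -1.28 ± 0.35) and 1 hepatocyte marker (Apob, -0.52 ± 0.08) were lower. The endothelial sum was 2779 to 3209 in vehicle and 1947 to 2682 at 20 µM at 24 h, without overlap. Lrat, Cftr, Krt7 and Spp1 were too dim to be kept. The part of other cell types in the changes of the CYP2 genes was not tested.

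The genes outside the CYP2 family whose log2 signals ran most closely with each member over the 30 arrays were named by Pearson's r, with no test, since the 6 groups alone can produce such values. Cyp2c13 ran with Car3 (r = 0.99), a muscle and liver carbonic anhydrase that was at -2.46 between the times of vehicle and 0.05 at 20 µM and 48 h. Pon1 (r = 0.97) and Rup2 (r = 0.97) followed. Cyp2e1 ran with C8b, Fabp1 and Vkorc1 (r = 0.96 each), and Cyp2a2 with Eif4ebp3 (0.98), Angptl4 (0.96) and Eci2 (0.96).

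Cyp2j4 ran with Cyp7a1, Aadac and Acot4 (r = 0.97 each), which like it were higher at 48 than at 24 h of vehicle and lower at 20 µM. Cyp2d3 ran with Cdh1 (r = 0.97), C4bpa (0.96) and Dhrs3 (0.96), and Cyp2c11 with Hrg (0.96), Vkorc1 (0.95) and Dhrs7l1 (0.94). Cyp2c23 was nearest to Rida (0.95), C4bpb (0.93) and Ust5r (0.93), and Cyp2c12 to Dhrs7l1 (0.87), C4bpb (0.86) and Sult1c3 (0.86). For Cyp2a1 the nearest were Glrx (0.85), Tifa (0.82) and Adprm (0.82), and for the first Cyp2d4 probe set Synrg (0.83), Ttc36 (0.83) and Sardh (0.79). With the brightest probe set of each gene, the top values of Cyp2d4 (0.83) and Cyp2a1 (0.85) were the lowest, close to that of Cyp2c12 (0.87).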

How the data were processed

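RNA from 30 wells, labelled as cRNA, was read on a rat oligonucleotide array with 31099 probe sets, 57 of them controls. The authors summarised arrays with MAS5, per the submitters' processing notes (version not given in the sources used here), and deposited linear intensity values (signal) per probe set. Wells were grouped by their agent, concentration and time entries. For vehicle replicate 2 at 24 h the title reads 2 h, and the entry of 24 h was followed. Replicate numbers follow accession order and were not used to pair wells. Array numbers in the titles run through the groups in 1 order, so dose and time share their order with position in a set.

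Values under 16 (3.86% of all) were set to 16 before log2 was taken. A probe set was kept if at least 5 arrays had it above that array's 40th percentile, which left 21226. All 30 arrays entered 1 fit of group means in limma 3.58.1 (R 4.3.3, eBayes with a trend), with Benjamini-Hochberg adjustment over the kept probe sets within each comparison and a threshold of 0.05. Tables and figures used Python 3.11.15 with pandas 2.3.3 and matplotlib 3.10.9. Names came from the platform annotation: 20826 probe sets had 1 symbol, 436 several and 9780 were not listed. In lists each gene stands for its brightest kept probe set (11503 genes), with the p adjusted over probe sets. The number of arrays limits precision.

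The members and lists were chosen with earlier results of these data known. Named from the lists are up to 4 called genes with the largest change at 20 µM and 48 h, plus Por, Alas1, Hnf4a, Cebpa, Nr1i3, Ghr and Stat5b. Other genes were named after their values were seen. Upstream sequences came from RefSeq (GRCr8), and that of Cyp2a2 was not used here. The fit was tested on simulated data for 20 µM against vehicle at 48 h with 21226 probe sets. Of 50 probe sets at each size it called 9 at 1.2-fold, 27 at 1.5-fold, 40 at 2-fold and 47 at 4-fold. There were 6 false among 129 calls. The data had 3064 higher and 2638 lower calls in that comparison, so these rates do not carry over to it. Alternatives covered the floor (1, 64), filter, scaling, trend, array weights, arrays in the fit, array number, 1 probe set per gene, a threshold of 0.01 and leaving out each array. Leaving out both 24 h arrays that stood apart was added after seeing the data.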

Additional observations from a re-analysis of the deposited data

Results flagged for a closer look

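In 6 of 66 groups of 5 arrays 1 array lay far from the others, where chance gives about 1 in 20 such groups. Each value here is the gap to the nearest array as a share of the group's range. 3 belong to the 2 arrays that stood apart at 24 h: Cyp2c13 in vehicle replicate 5 (low, 0.800), Cyp2c13 in 0.8 µM replicate 1 (low, 0.762) and Cyp2a1 in 0.8 µM replicate 1 (high, 0.757). The others are Cyp2c12 at 48 h in 0.8 µM replicate 4 (high, 0.780) and in 20 µM replicate 4 (low, 0.819), and the dimmer Cyp2d4 probe set at 24 h in 20 µM replicate 4 (low, 0.804).

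For 5 probe sets the effect of 20 µM differed between 48 and 24 h by limma's test of the difference. The log2 differences were -1.78 for Cyp2e1, -2.52 for Cyp2c12, -1.15 for Cyp2a2, -0.75 for Cyp2j4 and -1.46 for Cyp2c11.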

How the results depend on the processing

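Over 13 other settings and the omission of each array, 2742 of 2810 log2 changes of the members kept their direction and side of the threshold, 12 lost a call, 24 gained one and 32 changed sign. Without the 2 arrays that stood apart counts of called members moved by more than 1.5 times in 4 cases: 1 higher instead of 0 at 20 µM and 24 h, 2 higher instead of 1 in vehicle between times, 2 higher instead of 0 at 0.8 µM between times, and 1 instead of 0 for the 0.8 µM effect between times. With arrays centred on their medians 0.8 µM at 24 h had 0 called instead of 1. Omitting single arrays gave 6 to 8 lower at 20 µM and 24 h, 9 at 48 h, 1 called at 0.8 µM and 24 h, 2 to 4 at 48 h, and 4 to 5 in vehicle between times. No paired analysis was made, because the labels do not say whether the array numbers mark sets of wells.

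Changes of sign touched values near 0 that had no call. For Cyp2c13 at 20 µM and 24 h the change was -0.083 with array weights and -0.25 without the 2 arrays (single omissions -0.25 to 0.11), and its difference between times 0.078 without the 2 arrays (-0.28 to 0.078). Cyp2c12 at 0.8 µM and 24 h was 0.031 without the 2 arrays (-0.24 to 0.19). The difference between times of the brighter Cyp2d4 probe set was 0.005 with quantile normalization and 0.022 with array weights (-0.056 to 0.054), and of the dimmer one -0.26 to 0.012 on single omissions. Single omissions also turned 0.8 µM values at 24 h of Cyp2c23 (-0.23 to 0.12), Cyp2c13 (-0.37 to 0.23) and Cyp2j4 (-0.21 to 0.048), at 48 h of Cyp2c13 (-0.16 to 0.014), and the vehicle time change of Cyp2c11 (-0.018 to 0.057). The cause was not tested. Of simulated 1.2-fold changes 9 of 50 were called, so a change of that size in Cyp2a1 or Cyp2c13 could be missed.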
